A study of Mus musculus with 24 samples.

Results

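Imprinted genes are the genes of which mainly 1 parental copy is transcribed, and 39 of them, in the known imprinted clusters of the mouse, were followed through retinoid treatment of P19 cells. Of these, 32 had a probe set annotated to that gene alone, out of 19938 genes measured. H19, Kcnq1ot1 and Zrsr1 were not listed in the probe annotation, and Mirg, Snrpn, Ube3a and Gnas were listed on probe sets shared with other genes alone, so these 7 were not analysed here. P19 is a single established line of mouse embryonal carcinoma cells, which resemble the early embryo's pluripotent cells, and it was grown in monolayer on gelatine. The 24 Affymetrix Mouse Gene 1.0 ST arrays comprised 4 of EtOH (ethanol), the control without a time label, and 1 array at 2, 6, 24, 48 and 72 h for each of 4 agents. The agents were all-trans retinoic acid (ATRA, 1 µM), BMS753 (1 µM, an agonist of retinoic acid receptor RARα), BMS641 (0.1 µM, RARβ) and BMS961 (0.1 µM, RARγ). The dose differs between the pairs of agents, so only ATRA with BMS753 and BMS961 with BMS641 were set against each other.

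Imprints are parental marks of DNA methylation at control regions, set in the germ line and kept through the divisions of the embryo. Many paternally expressed imprinted genes, such as Igf2, promote the growth of the fetus or placenta, and several maternally expressed ones, such as Igf2r, Grb10, Phlda2 and Cdkn1c, restrain it. A gene array reads the sum of both copies, so a change here is one of total transcript level and says nothing of which copy was used or of methylation, and fewer cells of a kind and less RNA per cell cannot be told apart.

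Values are log2 intensities, and changes are differences of log2 intensity from the 4 EtOH arrays. The array medians lay between 6.502 and 6.677, and between any pair of EtOH arrays the SD of the differences over genes was 0.094 to 0.143. The number of arrays limits the precision. Separate cultures are not named in the labels. The p-values below therefore reflect only how much these arrays vary, part of which may be technical. With 1 array per agent and time, that spread also holds differences between agents in their time courses. Zim1, with a steep course, had an SE of 0.57 late with ATRA and an SD of 0.08 over the EtOH arrays. The EtOH arrays held the pluripotency markers Pou5f1 (12.85 to 12.99), Sox2 (11.50 to 11.56), Lin28a (11.40 to 11.46) and Nanog (8.82 to 8.91), while Zfp42 and Dppa5a were in the dimmest 33.3% of genes. No detection call came with the values, and 7 of the 32 imprinted genes (Meg3, Rian, Dio3, Usp29, Igf2r, Rasgrf1 and Nap1l5) lay in that dimmest share by mean level, so 25 passed such a filter.

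Over 24, 48 and 72 h of ATRA, 14 imprinted genes rose and 5 fell. The rises were Zim1, Airn, Igf2, Mest, Peg3, Peg10, Ndn, Igf2r, Sgce, Grb10, Peg12, Ppp1r9a, Slc38a4 and Usp29, and the falls were Magel2, Ascl2, Phlda2, Plagl1 and Inpp5f. The other 13 were not called, and their changes lay between −0.16 (Rasgrf1) and 0.21 (Dio3), each with a 95% interval inside −1 to 1. The calls were made with limma at a Benjamini-Hochberg adjusted p under 0.05 over all 19938 genes, with n = 3 late arrays and 4 EtOH arrays. Among all genes 36.9% were called in this comparison, 17.9% higher and 19% lower, against 59.4% of the 32 imprinted genes. The median change of the imprinted genes was 0.21, beside 0.03 for all genes, and the median size of a change was 0.42 beside 0.14. A called change of at least 2-fold was seen in 7 imprinted genes (21.9%), beside 4.71% of all genes. With the dimmest share of genes left out, 17 of 25 imprinted genes were called, and 51.5% of all genes were. In a further list of 30 genes, imprinted or beside imprinted clusters and described below, 36.7% were called. Both lists were chosen with earlier results of these data known.

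The calls are given here by cluster. All measured genes of the Peg3 cluster (3 of 3), of the Peg10-Sgce cluster (3 of 3) and of the Igf2r-Airn pair (2 of 2) rose with ATRA, whereas 0 of 5 genes of the Dlk1-Dio3 cluster were called. Meg3, Rian and Dio3 of the Dlk1-Dio3 cluster lay in the dimmest share of genes, and whether they were detected was not tested. Usp29 and Igf2r, which rose, lay in that share too. In the Kcnq1 cluster 2 of 5 fell and 0 rose. By the copy known to be expressed in the mouse, 10 of 20 paternally expressed genes rose and 2 fell. Of 9 maternally expressed genes 2 rose (Zim1 and Igf2r) and 2 fell (Phlda2 and Ascl2). Among all genes 17.9% rose and 19% fell. The median ATRA change was 0.32 for the paternally and 0.05 for the maternally expressed genes. In neither set were Grb10 and Ppp1r9a, maternally expressed in some tissues only, and Inpp5f, with a paternally expressed variant. With ATRA, Grb10 (0.61) and Ppp1r9a (0.43) rose and Inpp5f (−0.22) fell. The difference between the paternal and maternal sets was not tested.

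**Figure D1:**
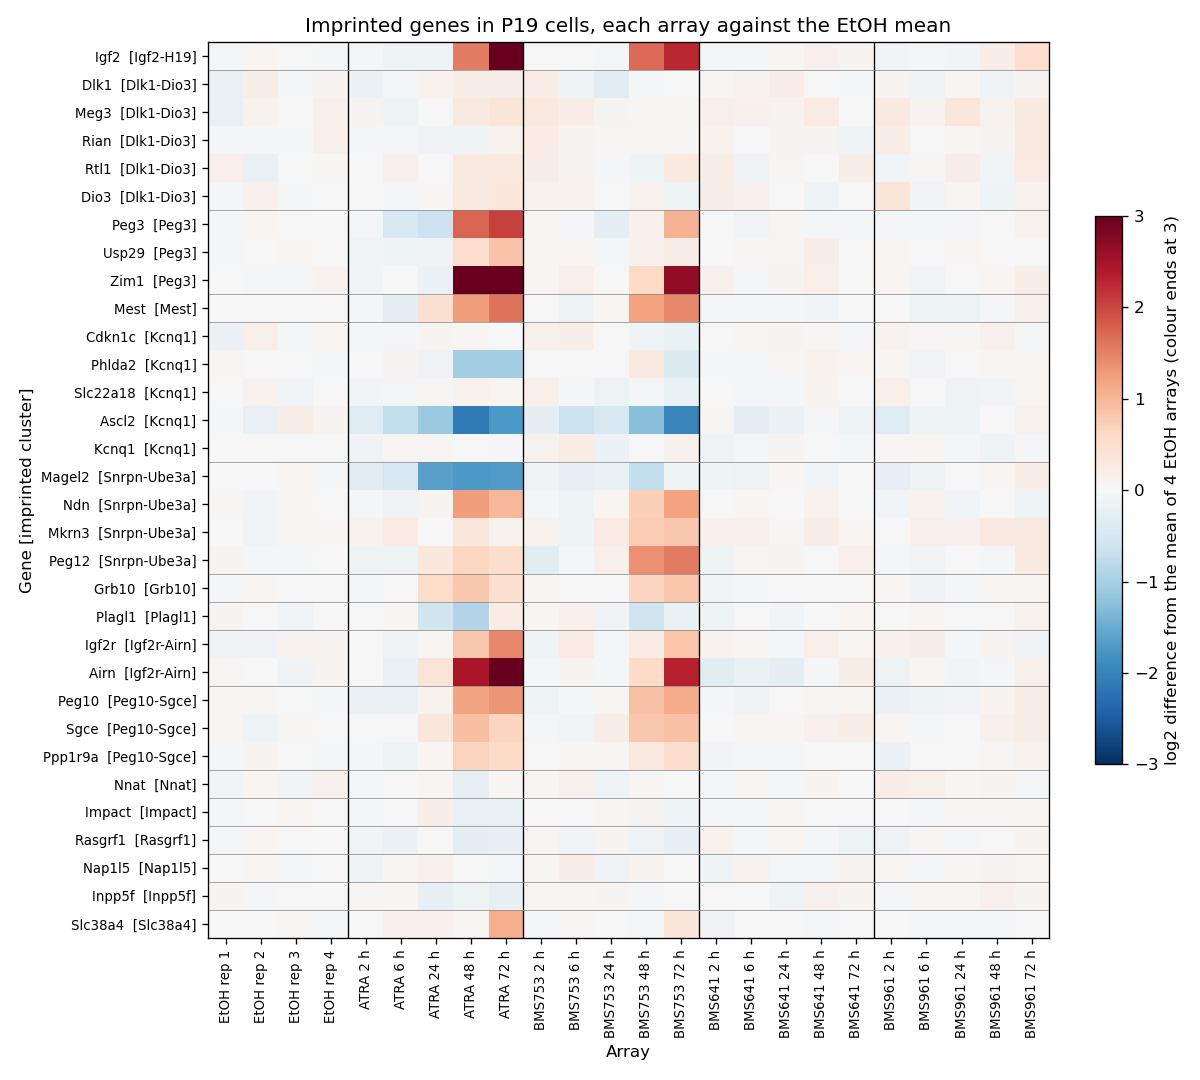
Heat map of the 32 measured imprinted genes (rows, with their cluster) over the 24 arrays (columns), coloured by the log2 difference from the mean of the 4 EtOH arrays, red higher and blue lower, with colours ending at 3. Most strong colours lie in the 48 and 72 h columns of ATRA and BMS753, Magel2 and Ascl2 are already blue at 24 h of ATRA (−1.64 and −1.12), and the columns of BMS641 and BMS961, where 0 genes were called, are pale.

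BMS753 at the same dose and times gave 7 rises (Peg12, Mest, Peg10, Ndn, Sgce, Mkrn3 and Grb10) and 2 falls (Ascl2 and Magel2), with 23 genes not called. These are 28.1% of the imprinted genes, where 13.5% of all genes were called, 6.52% higher and 6.94% lower. The median change was 0.05, beside −0.01 for all genes. At least 2-fold were the changes of Peg12 and Ascl2. This count moved with single times: it came to 15 when the 24 h arrays were left out, to 4 when those of 48 h were, and to 6 when those of 72 h were, while the share of all genes called went to 26.9%, 5.27% and 7.57%. ATRA and BMS753 were set against the same EtOH arrays.

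**Figure D2:**
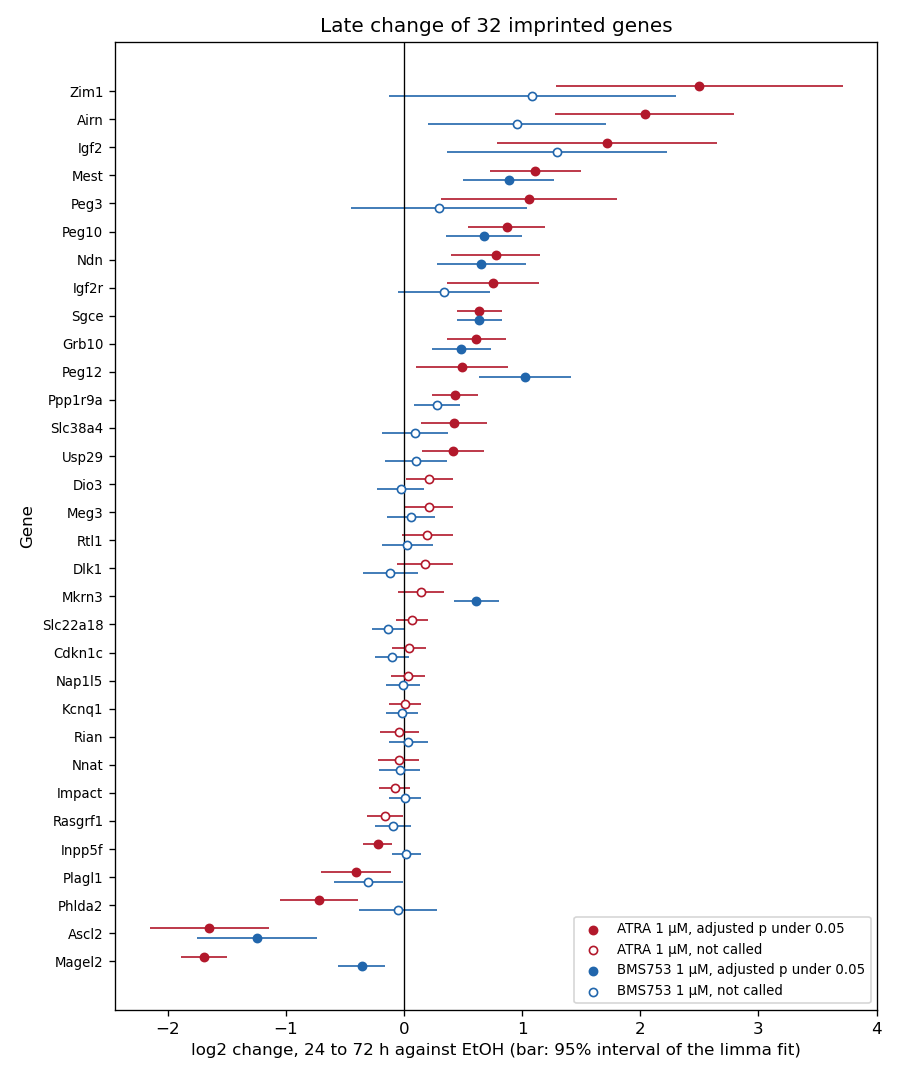
Late log2 change (24, 48 and 72 h against EtOH, n = 3 and 4) of each imprinted gene with ATRA (red) and BMS753 (blue), with the 95% interval of the limma fit as a bar. Filled points passed an adjusted p of 0.05. Zim1, Airn and Igf2 lie highest with ATRA and Magel2 and Ascl2 lowest, and Magel2 is the lowest red point, at −1.69, with its blue point at −0.36.

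Igf2 encodes insulin-like growth factor 2, the main growth factor of the fetus. Its level was 9.11, 9.23, 9.17 and 9.09 in the EtOH arrays and 9.02, 10.68 and 12.92 at 24, 48 and 72 h of ATRA. With BMS753 it was 9.08, 10.84 and 11.42 at these times. At 24 h Igf2 was thus below the EtOH arrays with either agent, and at 48 and 72 h above them. The late ATRA change was 1.72 ± 0.44 (SE, 3.30-fold, adjusted p = 0.00613), and 0.70 with an adjusted p = 0.0682 without the 72 h arrays. With BMS753 it was 1.30 ± 0.44 and was not called (adjusted p = 0.0621), and without the 24 h arrays it was 1.98 with an adjusted p = 2.16e-04. The same gene stood at 9.66 at its highest over the 10 arrays of the 0.1 µM agonists, at 72 h of BMS961.

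Mest, an imprinted gene whose product has a hydrolase fold and which is expressed in mesodermal tissue of the embryo, had a steadier course. Its EtOH arrays read 11.37, 11.35, 11.39 and 11.37, and the ATRA arrays 11.82, 12.63 and 13 at 24, 48 and 72 h. The BMS753 arrays read 11.40, 12.57 and 12.81. Each of these 6 treated arrays was above the 4 EtOH arrays, and the 24 h BMS753 array by the least. Mest rose by 1.11 ± 0.18 with ATRA (adjusted p = 2.63e-04) and by 0.89 ± 0.18 with BMS753 (adjusted p = 0.00479), the latter call being lost when the 48 h or the 72 h arrays were left out.

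The Peg3 cluster rose as a block after 24 h of ATRA. Peg3 and Zim1 encode zinc finger proteins and Usp29 a ubiquitin protease, and Peg3 and Usp29 are paternally expressed while Zim1 is maternally expressed. In RefSeq's mouse annotation (GRCm38.p6), Peg3 and Usp29 start 164 bases apart on opposite strands, so that 1 stretch of DNA is the promoter of both, and Zim1 starts 34 kb from Peg3. The 250 bases before the Peg3 start (chr7:6730420-6730669, minus strand) and before the Zim1 start (chr7:6696433-6696682, minus strand) are shown because these neighbours rose together. Capitals mark the CpG dinucleotides, the sites of DNA methylation.
Peg3: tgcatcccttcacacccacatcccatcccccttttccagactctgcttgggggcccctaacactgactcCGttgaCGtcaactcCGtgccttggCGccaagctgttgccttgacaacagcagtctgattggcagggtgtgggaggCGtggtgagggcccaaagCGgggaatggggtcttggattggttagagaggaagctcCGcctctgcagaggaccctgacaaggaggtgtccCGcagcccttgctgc
Zim1: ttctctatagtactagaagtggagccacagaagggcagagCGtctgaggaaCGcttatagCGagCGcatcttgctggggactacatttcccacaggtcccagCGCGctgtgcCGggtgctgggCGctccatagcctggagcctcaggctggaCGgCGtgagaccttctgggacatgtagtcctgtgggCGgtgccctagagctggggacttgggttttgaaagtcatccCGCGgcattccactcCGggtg
The Peg3 window holds 8 CpG and that of Zim1 holds 14, where the median over all 32851 promoter windows of this length is 6.

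Zim1 was the imprinted gene with the largest late change. Its level was 5.81, 5.74, 5.77 and 5.92 in EtOH and 5.63, 9.29 and 9.99 at 24, 48 and 72 h of ATRA, a rise of 2.50 ± 0.57 (5.65-fold, adjusted p = 0.0031) that ranged from 1.66 to 3.83 over the alternatives. With BMS753 it stood at 5.80, 6.41 and 8.47, and its change of 1.09 ± 0.57 was not called (adjusted p = 0.246). At 24 h neither agent had moved Zim1 above the EtOH arrays. The mean of its EtOH arrays, 5.81, lay below the cut of 5.9 on mean level used by the filter on dim genes. Zim1 thus passed that filter only through its treated arrays, and the filter is no separate check of this rise.

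Peg3 followed a course with a dip before the rise. It was at 11.00, 11.11, 11.02 and 11.05 in EtOH and at 10.42, 12.79 and 13.10 after 24, 48 and 72 h of ATRA. With BMS753 it was at 10.76, 11.18 and 12.09. In both courses the 24 h array lay below and the 48 and 72 h arrays above the EtOH arrays. The late ATRA change was 1.06 ± 0.35 (adjusted p = 0.0269). That call was lost when the arrays of 48 h (0.71, adjusted p = 0.197) or of 72 h (0.55, adjusted p = 0.263) were left out, and also without EtOH replicate 1 (adjusted p = 0.0549), without EtOH replicate 3 (adjusted p = 0.0524) and without a time term (adjusted p = 0.0596).

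Usp29 shares the Peg3 promoter, and its signal was dim. Its EtOH arrays stood at 5.12, 5.18, 5.20 and 5.20 and its ATRA arrays at 5.07, 5.68 and 6.03, a rise of 0.42 ± 0.12 (adjusted p = 0.0147). The call was lost without the 48 h (0.37, adjusted p = 0.084) or the 72 h arrays (0.20, adjusted p = 0.15). With BMS753 the change of 0.10 was not called.

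**Figure D3:**
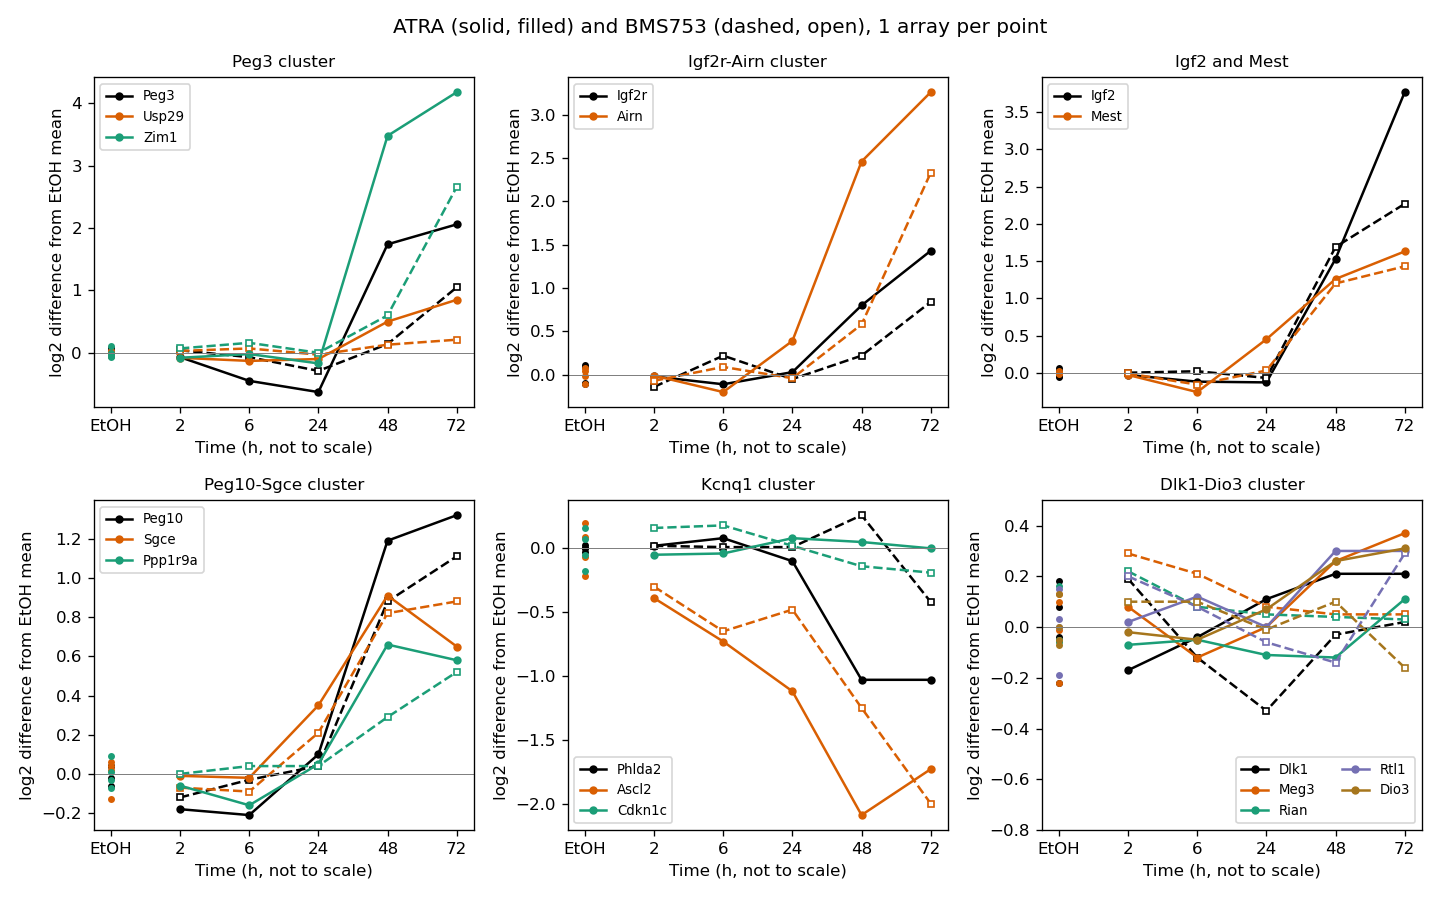
Time courses of members of 6 clusters, as log2 difference from the EtOH mean against time in hours (evenly spaced, not to scale), with ATRA as solid and BMS753 as dashed lines and the 4 EtOH arrays at the left. Each point is 1 array and each panel has its own vertical axis. Zim1 reaches 4.18 and Airn 3.26 at 72 h of ATRA, while the Dlk1-Dio3 genes stay between −0.33 and 0.37.

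Igf2r and Airn, which overlap on opposite strands, both rose. Igf2r encodes the receptor that takes up IGF2 for breakdown, and Airn is a long non-coding RNA, transcribed from within Igf2r on the paternal copy, that silences Igf2r there. Their starts lie 28.4 kb apart, and their promoter windows, chr17:12769707-12769956 on the minus strand for Igf2r and chr17:12741061-12741310 on the plus strand for Airn, are shown for the contrast in CpG.
Igf2r: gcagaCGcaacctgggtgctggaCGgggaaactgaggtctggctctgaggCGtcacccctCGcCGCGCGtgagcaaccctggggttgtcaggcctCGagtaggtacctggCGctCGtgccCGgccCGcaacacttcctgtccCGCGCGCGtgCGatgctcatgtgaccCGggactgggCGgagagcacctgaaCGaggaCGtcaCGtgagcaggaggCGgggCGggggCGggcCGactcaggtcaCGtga
Airn: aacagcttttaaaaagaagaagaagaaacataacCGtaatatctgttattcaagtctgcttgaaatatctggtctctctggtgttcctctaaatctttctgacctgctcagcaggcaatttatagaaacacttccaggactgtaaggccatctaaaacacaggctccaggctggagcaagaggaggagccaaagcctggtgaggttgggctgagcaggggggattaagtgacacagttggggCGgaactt
There are 27 CpG before the Igf2r start, more than in 91.4% of all windows, and 2 before the Airn start, more than in 18.8%. Both windows end at the start, and CpG beyond it were not counted. Capitals again mark CpG.

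Airn was at 7.68, 7.63, 7.53 and 7.72 in EtOH and at 8.04, 10.10 and 10.90 at 24, 48 and 72 h of ATRA. With BMS753 it was at 7.61, 8.22 and 9.97. All 3 ATRA arrays lay above the EtOH arrays, and with BMS753 those of 48 and 72 h did. The ATRA rise was 2.04 ± 0.35 (4.10-fold, adjusted p = 4.63e-04). The BMS753 change of 0.96 ± 0.35 was not called (adjusted p = 0.0916), and was 1.45 with an adjusted p = 2.45e-04 without the 24 h arrays.

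Igf2r stood at 5.56, 5.57, 5.78 and 5.76 in EtOH and at 5.71, 6.47 and 7.10 with ATRA, a rise of 0.75 ± 0.18 (adjusted p = 0.00439). With BMS753 it read 5.62, 5.89 and 6.51, and the change of 0.34 was not called. The 24 h arrays of both agents lay within the EtOH range. The labelling kept the strand, per the label protocol, but whether the probes of 1 gene also read the transcript of the other was not tested.

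In the Peg10-Sgce cluster 3 of 3 genes rose with ATRA and 2 of 3 with BMS753. Peg10, a gene derived from a retrotransposon and needed in the placenta, was at 12.35, 12.36, 12.29 and 12.26 in EtOH, at 12.42, 13.50 and 13.63 with ATRA and at 12.36, 13.19 and 13.43 with BMS753. Its ATRA rise was 0.87 ± 0.15 (adjusted p = 4.75e-04) and its BMS753 rise 0.68 ± 0.15 (adjusted p = 0.00871), the latter lost when the arrays of 48 h, those of 72 h or the time term were left out. Sgce, which encodes ε-sarcoglycan of the membrane and shares the Peg10 region, rose by the same amount with either agent, 0.64 ± 0.09 with ATRA (adjusted p = 9.73e-05) and 0.64 ± 0.09 with BMS753 (adjusted p = 3.96e-04). Its EtOH arrays read 10.66, 10.47, 10.64 and 10.62, the ATRA arrays 10.94, 11.51 and 11.25 and the BMS753 arrays 10.81, 11.42 and 11.47, so that all 6 treated arrays lay above the EtOH arrays. Ppp1r9a, which encodes the actin-binding phosphatase partner neurabin, rose by 0.43 ± 0.09 with ATRA (adjusted p = 0.00192). Its BMS753 change of 0.28 ± 0.09 was not called (adjusted p = 0.054).

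Grb10, an adaptor that dampens signalling by the insulin and IGF receptors, also rose with both. It stood at 10.98, 11.05, 11.00 and 11.00 in EtOH, at 11.56, 11.83 and 11.48 with ATRA and at 10.99, 11.66 and 11.84 with BMS753. The ATRA arrays were above EtOH from 24 h and the BMS753 arrays from 48 h. The changes were 0.61 ± 0.12 (adjusted p = 9.41e-04) and 0.49 ± 0.12 (adjusted p = 0.0132), and the BMS753 call was lost when the arrays of 48 h or of 72 h were left out.

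The falls with ATRA included 2 maternally expressed genes of the Kcnq1 cluster, Ascl2 and Phlda2. Ascl2 encodes a basic helix-loop-helix transcription factor needed for the trophoblast of the placenta. It was at 7.66, 7.51, 7.93 and 7.82 in EtOH, at 6.61, 5.64 and 6.00 with ATRA and at 7.25, 6.48 and 5.73 with BMS753. All 6 of these arrays lay below the EtOH arrays. Ascl2 fell by 1.65 ± 0.24 with ATRA (3.13-fold, adjusted p = 1.17e-04) and fell by 1.24 ± 0.24 with BMS753 (adjusted p = 0.00324). At 2 and 6 h, 6 of the 8 arrays lay below the EtOH arrays: the 4 of the 1 µM agents, between 7.00 and 7.43, and those of BMS641 at 6 h (7.45) and BMS961 at 2 h (7.35). The early changes of −0.56 with ATRA and −0.47 with BMS753 were not called (adjusted p = 0.656 and 0.587).

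Phlda2, which limits growth of the placenta, was also lower late with ATRA. It was at 12.54, 12.52, 12.52 and 12.48 in EtOH and at 12.42, 11.48 and 11.49 at 24, 48 and 72 h of ATRA, a change of −0.72 ± 0.15 (adjusted p = 0.00208). The 24 h array was below the EtOH arrays by little and those of 48 and 72 h by more. With BMS753 it was at 12.52, 12.77 and 12.10, so its 48 h array lay above and its 72 h array below the EtOH arrays, and the change of −0.05 was not called. The other measured genes of the cluster were the cell cycle inhibitor gene Cdkn1c (0.04 with ATRA), the potassium channel gene Kcnq1 (0.01) and the transporter gene Slc22a18 (0.07), of which 0 were called.

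Neighbours in the region of Ndn went opposite ways. Ndn (necdin) and Magel2 encode proteins of the MAGE family, Mkrn3 a makorin RING finger protein and Peg12 a relative of the Frat proteins that bind the kinase GSK3, and all are paternally expressed. Their starts follow each other in RefSeq at distances of 28.7 kb from Ndn to Magel2, 43.2 kb on to Mkrn3 and 44.4 kb on to Peg12. The promoters of Ndn (chr7:62348027-62348276, plus strand) and Magel2 (chr7:62376729-62376978, plus strand) are shown because these neighbours diverged, with CpG in capitals.
Ndn: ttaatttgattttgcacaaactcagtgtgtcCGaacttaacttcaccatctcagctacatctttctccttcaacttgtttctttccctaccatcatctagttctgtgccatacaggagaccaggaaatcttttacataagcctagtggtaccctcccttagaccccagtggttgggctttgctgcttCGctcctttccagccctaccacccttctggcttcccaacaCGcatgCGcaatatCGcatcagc
Magel2: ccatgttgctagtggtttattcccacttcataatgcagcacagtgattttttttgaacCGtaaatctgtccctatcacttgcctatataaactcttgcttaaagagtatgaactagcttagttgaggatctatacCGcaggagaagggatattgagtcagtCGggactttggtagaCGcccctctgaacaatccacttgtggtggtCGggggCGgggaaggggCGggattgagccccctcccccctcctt
These windows hold 5 and 7 CpG.

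Magel2 was the imprinted gene with the lowest adjusted p. Its 4 EtOH arrays read 9.24, 9.25, 9.32 and 9.23, and its ATRA arrays 7.62, 7.53 and 7.55 at 24, 48 and 72 h. The drop was complete at 24 h, a time when Igf2, Zim1 and Peg3 had not risen. Magel2 fell by 1.69 ± 0.09 with ATRA (3.23-fold, adjusted p = 3.55e-08), with −1.72 to −1.67 over the alternatives. With BMS753 it read 9.06, 8.51 and 9.14, all below the EtOH arrays, a change of −0.36 ± 0.09 (adjusted p = 0.0184) that was −0.16 and not called without the 48 h arrays, and not called without EtOH replicate 3 (adjusted p = 0.0523).

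Ndn stood at 10.59, 10.46, 10.59 and 10.56 in EtOH, at 10.64, 11.80 and 11.55 with ATRA and at 10.61, 11.26 and 11.75 with BMS753. It rose by 0.78 ± 0.18 (adjusted p = 0.00305) and by 0.65 ± 0.18 (adjusted p = 0.023). The ATRA call was lost without the 48 h arrays (0.54, adjusted p = 0.0572). The BMS753 call was lost when the arrays of 48 h, those of 72 h, EtOH replicate 2, EtOH replicate 4 or the time term was left out.

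Peg12 and Mkrn3 had their highest levels with BMS753. Peg12 read 7.40, 7.25, 7.29 and 7.33 in EtOH, 7.63, 7.95 and 7.84 with ATRA and 7.46, 8.68 and 8.89 with BMS753. The BMS753 rise was 1.03 ± 0.18 (adjusted p = 0.0021). The ATRA rise was 0.49 ± 0.18 with an adjusted p = 0.048, a call lost in 9 of 13 alternatives, among them leaving out any single EtOH array. Mkrn3 read 6.58, 6.51, 6.62 and 6.65 in EtOH, 6.58, 6.92 and 6.70 with ATRA and 6.84, 7.35 and 7.41 with BMS753. It rose by 0.61 ± 0.09 with BMS753 (adjusted p = 5.25e-04), and its ATRA change of 0.14 was not called (adjusted p = 0.233).

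**Figure D4:**
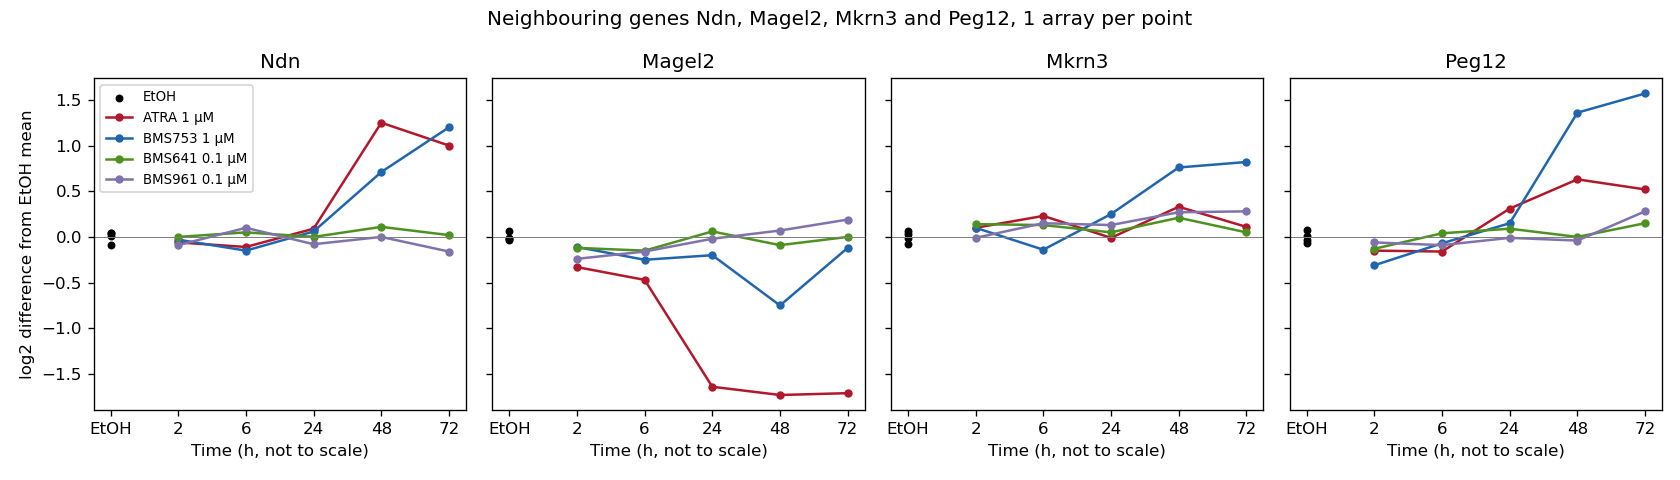
Ndn, Magel2, Mkrn3 and Peg12 as log2 difference from the EtOH mean against time in hours (evenly spaced, not to scale), 1 array per point, with ATRA, BMS753, BMS641 and BMS961 as coloured lines and the 4 EtOH arrays at the left. Magel2 lies at −1.64 to −1.73 from 24 h of ATRA while Ndn reaches 1.25, and Peg12 and Mkrn3 are highest in the BMS753 line.

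Plagl1, Slc38a4 and Inpp5f, each the 1 measured gene of its locus as are Mest and Grb10, were also called with ATRA. Plagl1, a zinc finger transcription factor, was at 12.50, 12.41, 12.33 and 12.43 in EtOH and at 11.87, 11.52 and 12.64 with ATRA, so it lay below the EtOH arrays at 24 and 48 h and above them at 72 h. Its mean change of −0.41 ± 0.14 (adjusted p = 0.0307) was not called in 7 of 13 alternatives, and was −0.16 (adjusted p = 0.344) without the 48 h arrays. Slc38a4, an amino acid transporter of liver and placenta, was at 11.27, 11.24, 11.29 and 11.21 in EtOH and at 11.38, 11.32 and 12.34 with ATRA, and its change of 0.43 ± 0.13 (adjusted p = 0.0185) fell to 0.10 (adjusted p = 0.122) without the 72 h arrays and was not called without a time term (adjusted p = 0.0512). Inpp5f, an inositol phosphatase, was at 8.66, 8.53, 8.55 and 8.55 in EtOH and lower at 8.32, 8.41 and 8.33 with ATRA, a small change of −0.22 ± 0.06 (adjusted p = 0.00749).

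The Dlk1-Dio3 cluster, which carries the paternally expressed Dlk1, Rtl1 and Dio3 and the maternal non-coding RNAs Meg3 and Rian, had 0 calls of 5 genes with ATRA or BMS753. Of these genes, Meg3, Rian and Dio3 lay in the dimmest share, so a missing call there may be a lack of signal. With ATRA the changes were 0.18 for Dlk1, 0.20 for Rtl1, 0.21 for Dio3, 0.21 for Meg3 and −0.04 for Rian, with adjusted p from 0.0837 (Dio3) upward. Without the 24 h arrays Meg3 (0.32, adjusted p = 0.0175), Rtl1 (0.30, adjusted p = 0.0419) and Dio3 (0.28, adjusted p = 0.0406) were called higher with ATRA, where 44.9% of all genes were called. The proteolipid gene Nnat, the Gcn2 inhibitor gene Impact, the Ras exchange factor gene Rasgrf1 and Nap1l5 of the nucleosome assembly protein family were not called with either agent. Of these 4, Impact (−0.21, adjusted p = 0.00199) and Rasgrf1 (−0.25, adjusted p = 0.00907) were called lower with ATRA without the 24 h arrays, and Rasgrf1 also after another quantile normalization (−0.24, adjusted p = 0.0217).

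ATRA and BMS753 were then compared directly at 24, 48 and 72 h, both at 1 µM. In this comparison 10.4% of all genes were called, 4.44% higher and 5.93% lower with ATRA, and 4 of the 32 imprinted genes (12.5%) were, all lower with ATRA. Magel2 was lower by −1.33 ± 0.10 (adjusted p = 1.66e-05, n = 3 and 3), Phlda2 by −0.67 ± 0.17 (adjusted p = 0.0219), Mkrn3 by −0.47 ± 0.10 (adjusted p = 0.0103) and Inpp5f by −0.24 ± 0.06 (adjusted p = 0.0256). Magel2 was lower with ATRA at each of the 3 times. With the 48 h arrays left out only Magel2 of these 4 stayed called, and with those of 72 h left out Magel2 and Phlda2. In a fit of these 6 arrays alone 0 imprinted genes and 0 of all genes were called.

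Of the 14 genes that rose with ATRA, 0 differed between ATRA and BMS753 by this test. The difference was 1.41 for Zim1 (95% interval 0.11 to 2.71, adjusted p = 0.138), 1.08 for Airn (0.27 to 1.89, adjusted p = 0.078), 0.76 for Peg3 (−0.04 to 1.55, adjusted p = 0.188) and 0.42 for Igf2 (−0.57 to 1.42, adjusted p = 0.572). Intervals this wide leave room for differences over 2-fold. For Sgce (−0.20 to 0.21), Grb10 (−0.14 to 0.39) and Ndn (−0.28 to 0.53) the intervals stayed within 1 on the log2 scale. The Peg12 difference was −0.54 (−0.95 to −0.12, adjusted p = 0.088). Without the 24 h arrays 12 imprinted genes differed, and the share of all genes called was then 23.7%. Zim1 (2.20), Airn (1.40) and Peg3 (1.31) were among those higher with ATRA, and Peg12 (−0.89) among those lower.

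The 0.1 µM agonists changed no imprinted gene by limma's test. With BMS641, 0 of 32 were called late and 0 early (0 and 0 at an unadjusted p under 0.05), where 0% of all genes were called in either phase. With BMS961, 0 were called late and 0 early (2 and 0 at an unadjusted p under 0.05), where 0.00502% and 0% of all genes were. The late changes of the imprinted genes lay between −0.11 (Ascl2) and 0.12 (Sgce) with BMS641 and between −0.08 (Ndn) and 0.24 (Meg3) with BMS961. The intervals lay within −1 to 1 for 30 of the 32 genes with either agent. BMS961 and BMS641, the second pair at a common dose, differed late in 0 imprinted genes (0 at an unadjusted p under 0.05) and in 0% of all genes, with 30 of 32 intervals within −1 to 1. Thus 2 pairs of agents were compared, and p-values were adjusted within each.

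At 2 and 6 h the 1 µM agents too had 0 imprinted genes called, with ATRA (1 at an unadjusted p under 0.05) or with BMS753 (3), where limma called 0.858% of all genes with ATRA (0.823% higher and 0.0351% lower) and 0.306% with BMS753. The early changes ranged from −0.56 (Ascl2) to 0.17 (Mkrn3) with ATRA and from −0.47 (Ascl2) to 0.25 (Meg3) with BMS753. In a fit of only the early ATRA and the EtOH arrays, whose spread comes from the EtOH arrays alone and which called 6.98% of all genes, 5 were called lower early with ATRA: Ascl2 (−0.56), Magel2 (−0.40), Peg3 (−0.26), Peg10 (−0.20) and Mest (−0.15).

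Genes of imprint keeping and DNA methylation were measured on the same arrays, listed with chromatin genes such as Ctcf, Ezh2, Cbx5 and Arid4b. Of these 24 genes, late ATRA gave 5 rises, 7 falls and 12 without a call (50% called, beside 36.9% of all genes). The median change was −0.01. The chromatin genes Arid4b (0.32), Ezh2 (0.27) and Cbx5 (0.25) were among the rises. The zinc finger gene Zfp57, whose product guards imprints, was not called (−0.15), nor were the maintenance methyltransferase gene Dnmt1 (−0.06) and its partner Uhrf1 (−0.02). Trim28, the gene of the cofactor of ZFP57, fell by 0.13 ± 0.05. The de novo methyltransferase genes Dnmt3b (−3.04 ± 0.39) and Dnmt3a (−0.80 ± 0.24), the remodeller gene Hells (−0.62 ± 0.08) and the dioxygenase gene Tet1 (−0.69 ± 0.12) were lower, and Tet2 (1.40 ± 0.21) and Tet3 (0.64 ± 0.14) higher. With BMS753, 3 rose and 5 fell (33.3% called, beside 13.5% of all genes).

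The sequence TGCCGC, which ZFP57 binds when methylated, was searched on both strands in the 250 bases before each RefSeq start. It was in 8.68% of the 32851 windows and in 6 of the 36 windows (16.7%) of the 26 measured imprinted genes with an entry. These genes were Meg3, Mest, Nap1l5, Plagl1 and Zim1, of which Meg3 and Nap1l5 were not called with ATRA.

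Partners of IGF2 were measured beside it. Of 15 genes of the insulin-like growth factor axis, late ATRA gave 6 rises, 1 fall and 8 without a call (46.7% called, beside 36.9% of all genes), with a median change of 0.34. The binding protein genes Igfbp5 (2.81 ± 0.66) and Igfbp4 (1.72 ± 0.26), the growth factor gene Igf1 (1.39 ± 0.42), the chromatin protein gene Hmga2 (1.39 ± 0.33) and the adaptor gene Irs1 (1.02 ± 0.20) rose, and the RNA-binding protein gene Lin28a, which is also among the pluripotency markers, fell (−1.14 ± 0.34). The receptor genes Igf1r (0.04) and Insr (0.00) were not called. With BMS753, 3 of the 15 rose (Irs1, Igfbp4 and Hmga2) and 0 fell (20% called, beside 13.5% of all genes).

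A further 30 genes are reported as imprinted in mouse or lie beside imprinted clusters. Of these, late ATRA gave 6 rises, 5 falls and 19 without a call (36.7% called, where 36.9% of all genes were). With BMS753, 5 rose and 2 fell (23.3% called, beside 13.5% of all genes). The largest ATRA change was that of the calcitonin receptor gene Calcr (−3.44 ± 0.47), a neighbour of the Peg10-Sgce cluster. Calcr fell with ATRA while Peg10, Sgce and Casd1 (0.60 ± 0.14) rose. The decarboxylase gene Ddc, beside Grb10, rose by 1.17 ± 0.10, and the lipid flippase gene Atp10a, in the region of Ube3a, fell by 0.52 ± 0.08.

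Markers of other cell types were measured over the same hours, in which 36.9% of all genes were called with ATRA and 13.5% with BMS753. The mean level of 12 pluripotency genes was 9.22 to 9.30 in EtOH, 6.62 to 8.78 late with ATRA (0 rose and 8 fell) and 7.63 to 9.34 late with BMS753 (0 and 3). For 15 endoderm genes these ranges were 6.74 to 6.83, 7.31 to 8.02 (7 rose and 0 fell) and 6.93 to 7.57 (3 and 0). For 10 fibroblast and mesenchyme genes they were 6.24 to 6.33, 6.64 to 7.76 (6 and 1) and 6.37 to 7.15 (1 and 1), and for 12 mesoderm and muscle genes 6.68 to 6.73, 6.66 to 7.56 (5 and 3) and 6.64 to 6.86 (0 and 2). For 12 neuron genes the ranges were 7.88 to 7.93, 7.75 to 9.51 (4 and 0) and 7.77 to 7.85 (1 and 0), and for 10 trophoblast genes 6.80 to 6.85, 6.99 to 7.31 (2 and 1) and 6.83 to 7.17 (2 and 1). The visceral endoderm genes Afp (−0.06) and Ttr (0.13) and the muscle genes Myod1 (0.03) and Myog (−0.02) were not called with ATRA. Of the same lists, the endoderm genes Foxa1 (3.30) and Gata6 (3.02) and the muscle genes Tagln (1.82) and Acta2 (1.52) rose. The muscle gene Des (−1.24) fell. The part of these cell types in the changes of the imprinted genes was not tested.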

How the data were processed

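Per the labels, RNA of P19 cells was labelled by a whole-transcript sense-target protocol and hybridised to Affymetrix Mouse Gene 1.0 ST arrays. Each deposited value is a log2 intensity of 1 probe set, for which the authors used Affymetrix Expression Console 1.1, per the submitters' processing notes. Background correction, summarization, normalization and build are not given in the sources used here, and the log2 scale was judged from the range, 2.859 to 14.303. Of 35556 probe sets, 21789 had 1 gene symbol, 1621 several and 12146 none in GEO's annotation, and the probe set with the highest mean was kept per gene (19938 genes, all 32 imprinted genes matched by gene identifier). Nothing was filtered out.

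Arrays of an agent at 2 and 6 h (early, n = 2) or 24 to 72 h (late, n = 3) served as its repeats. limma 3.58.1 in R 4.3.3 (lmFit, eBayes with trend=TRUE) fitted all 24 arrays with a mean per group and time terms within a phase shared by the agents, leaving 12 residual degrees of freedom and a prior of 3.10. It was tested on simulated data. Tests are two-sided, 10 comparisons were made, and intervals are 95%. Called means an adjusted p under 0.05.

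The imprinted genes and all gene lists were chosen with earlier results of these data known. Called genes were described singly, others by range, and genes outside the set came from fixed lists. Promoters are RefSeq's (GRCm38.p6). Alternatives were a filter on the dimmest 33.3% of genes, another quantile normalization, averaging the probe sets of a gene, no time term, robust moderation, a fit of only the groups in a comparison, and omission of single EtOH arrays or times.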

Additional observations from a re-analysis of the deposited data

Results flagged for a closer look

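The response of 4 imprinted genes differed between the 1 µM agents by limma's test of the difference itself, late and on the log2 scale, ATRA minus BMS753: Magel2 (−1.33), Phlda2 (−0.67), Mkrn3 (−0.47) and Inpp5f (−0.24). These are 12.5% of the imprinted genes, where 10.4% of all genes were called. None of the 4 calls held in a fit of only these arrays, and leaving out the arrays of 48 h ended those of Phlda2, Mkrn3 and Inpp5f, and leaving out those of 72 h ended the ones of Mkrn3 and Inpp5f. Rian, at 4.78 in EtOH replicate 4 and at 4.56 to 4.57 in the other EtOH arrays, had 1 array far from the rest, with a gap of 0.945 of the group's range. Chance alone marks about 1 in 20 groups of this size in that way, and 32 genes were looked at.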

How the results depend on the processing

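No analysis paired by replicate was possible, because only the EtOH arrays carry replicate numbers. Arrays of different agents do share their labelled times, which the time terms take up. Without these terms the late counts were 15 with ATRA, 7 with BMS753 and 4 between them. The shares of all genes called were then 34.1%, 9.7% and 8.2%. No called imprinted gene changed direction under any alternative that was run. Of the 19 calls with ATRA late, 12 held in every alternative that tested the gene. The count ranged from 14 to 23, while the share of all genes called ranged from 29% to 51.5%. Igf2r, 1 of the 12, was removed by the filter on dim genes and so was not tested there. Of the 9 calls with BMS753 late, 4 (Ascl2, Mkrn3, Peg12 and Sgce) held in every alternative. The count was 16 in a fit of only the groups compared, which called 31.4% of all genes. In such a late fit against EtOH the spread comes from the EtOH arrays alone. With single EtOH arrays or times left out, the count ranged from 4 to 15 and the share of all genes from 5.27% to 26.9%. Between ATRA and BMS753 late the count of 4 became 0 in a fit of only these groups, which has fewer residual degrees of freedom. It ranged from 1 to 12 with single arrays or times left out, where 1.59% to 23.7% of all genes were called. Fits of only the groups compared gave 5 early calls with ATRA, 1 with BMS753 (Ascl2) and 1 late call with BMS961 (Igf2, 0.21), where they called 6.98%, 4.52% and 2.33% of all genes. The other counts, of 0 with BMS641 and between BMS961 and BMS641, stayed at 0. The number of arrays, 1 per agent and time, limits every value.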

Other observations

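Magel2 lay below all 4 EtOH arrays in each of the 8 arrays taken at 2 and 6 h, those of the 0.1 µM agonists included. Its early levels were 8.78 to 9.15 over the 8 arrays, against 9.23 to 9.32 in EtOH, and the differences from the EtOH mean ran from −0.47 to −0.11. Over all genes 0.471% had all 8 early arrays below the EtOH arrays and 1.4% had all 8 above, and Magel2 was the 1 imprinted gene among the former. Peg10 lay below the EtOH arrays in 7 of the 8, and Ascl2, Mest and Peg12 in 6, while Mkrn3 lay above them in 6. The EtOH arrays carry no time label, so time in culture and agent cannot be told apart here. The level of Magel2 returned to within or above the EtOH range at 24 and 72 h of BMS641 and at 24 to 72 h of BMS961.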
